A study of Mus musculus with 10 samples.

Results

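The genes of the Crumbs polarity complex carried more H3K18La and more H3K27Ac, relative to all reads of a library, in mouse retinal explants kept at 25 mM glucose than in explants kept at 5 mM. The 6 genes were Crb1, Crb2, Mpp4, Mpp5, Patj and Pard3. Every peak assigned to one of these symbols was taken, whether annotated as promoter or not, which gave 130 of 108253 peaks and 6 of 25400 gene symbols. Of these peaks, 80 belonged to Pard3, 16 to Patj, 15 to Crb1, 14 to Crb2, 3 to Mpp4 and 2 to Mpp5, and 11 of the 130 were promoter peaks. The profiles were made by CUT&Tag, in which antibody-guided transposition releases DNA fragments around histones that carry a given modification. Retinas came from wild-type C57BL/6J mice at postnatal day 28, were freed of the pigment epithelium and were cultured whole for 48 hours in Neurobasal-A medium with supplements and either glucose level. H3K18La, lactylation of lysine 18 of histone H3, was profiled in 3 libraries at each glucose level. H3K27Ac, acetylation of lysine 27, was profiled in 2 libraries at each level. No group carried a transgene or a drug.

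Crumbs proteins span the apical membrane of epithelial cells, where their short intracellular tails recruit scaffold proteins. In the retina the complex lies just above the adherens junctions that join photoreceptors to Müller glia at the outer limiting membrane. Mutations of human CRB1 cause inherited retinal dystrophies. CRB1 and CRB2 are the transmembrane members, MPP5 (also called PALS1) is the scaffold that binds their tails, PATJ is a multi-PDZ protein that binds PALS1, and MPP4 is a related scaffold of photoreceptors. PARD3 is the central scaffold of the Par complex, which works beside the Crumbs complex with PAR6 and atypical protein kinase C. H3K27Ac is a mark of active promoters and enhancers, and H3K18La is a modification derived from lactate.

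Levels are RPKM, reads divided by the length of the peak and by the reads of the library, listed in the order of the replicate numbers, and they were computed from 1358008 to 5182766 reads for H3K18La and from 4324289 to 7424470 reads for H3K27Ac. The share of reads inside the 108253 peaks was higher at 25 mM glucose in every library, at 11.9% ± 0.0965 (SD, n = 3) at 5 mM and 32.6% ± 2.08 at 25 mM for H3K18La and at 26.3% ± 7.35 (SD, n = 2) and 63.0% ± 9.19 for H3K27Ac. The part of this share in the results below was not tested beyond the values rescaled to reads in peaks that are given with them. The protocol text of the labels lists antibodies to H3K18La and to H3K9me3, a mark of silent chromatin, and the enzyme pA-MNase, whereas the titles give H3K18La and H3K27Ac by CUT&Tag and the study's methods name H3K27Ac and the transposase pA-Tn5. The titles were followed for the marks. In the libraries titled H3K27Ac the median of mean RPKM was 5.49 at the 17144 promoter peaks and 1.44 at the 91109 other peaks, against 1.44 and 1.21 in those titled H3K18La. The labels do not say whether replicates came from separate animals, so p-values measure at most the spread between these libraries. At the median symbol of the H3K27Ac gene fit, and of the fit of promoter peaks averaged, limma took the variance from the trend over all symbols. There a p-value or SE does not measure a gene's own spread between libraries. In bulk tissue a larger share of a cell type and a higher level per cell cannot be told apart. Cell type markers were tested as genes, and their counts stand against the 30.9% (H3K18La) and 43.3% (H3K27Ac) of all 25400 symbols that rose (limma on log2(RPKM + 0.5), Benjamini-Hochberg adjusted p under 0.05). These calls depended on the fit. Scaled to reads in peaks, 0 symbols passed in either mark (4008 and 5485 at an unadjusted p under 0.05), and in H3K27Ac 0 passed with ordinary moderation (11638 at an unadjusted p under 0.05), 0 without 5 mM replicate 1 (5657) and 0 without 5 mM replicate 2 (11643). The 6 rod markers Cnga1, Gnat1, Nr2e3, Nrl, Pde6b and Sag rose in both marks. Their summed H3K18La was between 7.76 and 10.3 RPKM at 5 mM and between 36.1 and 69.2 RPKM at 25 mM, and their summed H3K27Ac was between 33.3 and 56.6 RPKM and between 144 and 221 RPKM. Of 7 Müller glia markers, 3 rose in each mark, about the share of all symbols in H3K27Ac, and 1, Abca8a, fell in H3K27Ac, and their summed level ranged from 3.53 to 8.45 RPKM at 5 mM and from 10.4 to 13.8 RPKM at 25 mM for H3K18La and from 13.9 to 14.4 RPKM and from 25.5 to 32.8 RPKM for H3K27Ac. Of 5 cone markers, 4 rose in H3K18La and 3 in H3K27Ac, and of 6 bipolar markers 2 and 6 did. Of 4 amacrine markers 0 rose in either mark by limma, also at an unadjusted p under 0.05 and with voom weights. Of 3 ganglion cell markers 1 rose in H3K18La and 0 in H3K27Ac by limma (1 at an unadjusted p under 0.05, 0 with voom weights), and of 3 microglia markers 2 and 1 rose. Of 4 pigment epithelium markers, Rpe65 was listed at 0 in all 10 libraries and only Rgr, which Müller glia also express, rose, in both marks. The part of cell composition in the results was not tested.

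Sequences at the starts and at the strongest intronic peak are shown because the results below turn on the peaks at these places. Start windows were the 250 bases upstream of a RefSeq start (GRCm38.p6), which were found for 5 of the 6 genes, and bases that lay in an annotated exon were left out. No sequence is shown for Mpp5 or for the upstream Mpp4 start. Of the 250 bases of the upstream Pard3 window, 163 lay in Pard3 exons, so it is not shown. The internal Crb1 start and the Pard3 intronic peak were read from the GRCm38 genome. Capitals mark 3 motifs, in these letters or as their reverse complement: the GC box, GGGCGG, the CRX-type site, TAATCC, and the NRL-type site, TGCTGA. CRX and NRL are photoreceptor transcription factors, and the GC box is bound by SP-family factors.
Mpp4 second start, chr1:59161637-59161886, minus strand: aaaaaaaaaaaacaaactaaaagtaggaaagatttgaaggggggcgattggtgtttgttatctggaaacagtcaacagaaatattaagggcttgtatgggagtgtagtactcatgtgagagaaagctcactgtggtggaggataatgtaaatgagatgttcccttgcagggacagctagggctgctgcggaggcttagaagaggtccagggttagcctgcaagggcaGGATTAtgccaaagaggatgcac
Crb1 internal start, chr1:139255763-139256012, minus strand: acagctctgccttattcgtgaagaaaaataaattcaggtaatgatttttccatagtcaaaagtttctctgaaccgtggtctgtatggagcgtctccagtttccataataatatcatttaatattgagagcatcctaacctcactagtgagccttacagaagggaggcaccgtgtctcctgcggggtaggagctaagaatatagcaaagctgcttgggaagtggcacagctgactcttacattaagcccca
Crb1 upstream start, chr1:139377101-139377326, minus strand: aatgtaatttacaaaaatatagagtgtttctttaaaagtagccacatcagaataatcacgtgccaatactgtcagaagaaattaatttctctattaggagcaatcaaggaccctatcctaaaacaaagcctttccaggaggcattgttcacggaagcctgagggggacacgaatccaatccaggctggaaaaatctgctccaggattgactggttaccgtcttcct
Crb2 upstream start, chr2:37775999-37776248, plus strand: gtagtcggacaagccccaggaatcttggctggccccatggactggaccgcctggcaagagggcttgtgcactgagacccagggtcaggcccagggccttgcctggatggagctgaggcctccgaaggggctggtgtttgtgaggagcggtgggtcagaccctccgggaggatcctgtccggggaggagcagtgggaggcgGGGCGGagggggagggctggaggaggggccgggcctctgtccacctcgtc
Patj upstream start, chr4:98395576-98395784, plus strand: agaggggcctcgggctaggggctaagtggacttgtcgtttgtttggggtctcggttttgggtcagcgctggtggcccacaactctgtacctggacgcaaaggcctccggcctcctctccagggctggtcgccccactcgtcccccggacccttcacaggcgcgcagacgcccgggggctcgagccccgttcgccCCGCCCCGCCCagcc
Pard3 intron 5, centre of the strongest peak, chr8:127330535-127330784, plus strand: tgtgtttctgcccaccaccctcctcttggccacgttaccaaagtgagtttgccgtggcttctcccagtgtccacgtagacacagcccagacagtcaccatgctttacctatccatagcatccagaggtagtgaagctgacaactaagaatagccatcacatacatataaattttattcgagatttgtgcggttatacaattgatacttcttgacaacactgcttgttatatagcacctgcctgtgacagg

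Of the sequences shown, that of Mpp4 held 1 CRX-type site, that of Crb2 1 GC box and that of Patj 2 overlapping GC boxes. No match to the 3 motifs was found in either Crb1 sequence or in the Pard3 intron 5 sequence. Of the windows not shown, the upstream Mpp4 window held 1 NRL-type site and the upstream Pard3 window 1 GC box, not within its 87 exon-free bases. A further 3 RefSeq starts, 2 of Patj and 1 of Pard3, had windows in no peak of these genes, of which the Patj windows held 2 and 1 NRL-type sites and the Pard3 window no match. Over 32851 upstream windows of 250 bases, exon bases included, 32.7% held a GC box, 6.25% a CRX-type site and 16.1% an NRL-type site. A match describes letters only and says nothing of a bound factor.

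Averaged over all peaks of a gene, weighted by peak width, all 6 genes rose in both marks from 5 mM to 25 mM glucose, and no library of one glucose level overlapped the other. Over all 25400 symbols, 30.9% rose in H3K18La and 43.3% in H3K27Ac by the same test. The share of all symbols whose groups did not overlap was not counted. Among all single peaks the groups did not overlap, with 25 mM higher, at 36.6% in H3K18La and 53.0% in H3K27Ac. The median change of all symbols was 0.69 on the log2 scale for H3K18La and 0.70 for H3K27Ac, so each gene is also given relative to it.

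Mpp4 changed most among the 6 genes. Its H3K18La level was 2.85, 2.04 and 1.48 RPKM at 5 mM and 21.4, 11.4 and 10.6 RPKM at 25 mM (log2 change 2.48 ± 0.30 (SE), adjusted p = 0.00129), which was 1.78 above the median symbol (1.32 for H3K27Ac). Its H3K27Ac level was 8.94 and 15.1 RPKM at 5 mM and 62 and 38.3 RPKM at 25 mM (log2 change 2.02 ± 0.51 (SE), adjusted p = 0.00104). The 25 mM replicate 1 library was the highest of its group in both marks, and the lowest 25 mM library was still above every 5 mM library. Of all symbols, 99.8% had a smaller H3K18La change and 98.6% a smaller H3K27Ac change. The study had itself singled out Mpp4 in related samples, so its rank here is not independent evidence.

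The transmembrane genes Crb2 and Crb1 followed. Crb2, a transmembrane anchor of the complex in photoreceptors and Müller glia, had 3.33, 2.56 and 2.13 RPKM of H3K18La at 5 mM and 11.8, 8.71 and 7.53 RPKM at 25 mM (log2 change 1.63 ± 0.21 (SE), adjusted p = 0.00153). Its H3K27Ac values were 6.25 and 10.6 RPKM at 5 mM and 27.9 and 21 RPKM at 25 mM (log2 change 1.51 ± 0.47 (SE), adjusted p = 0.00692). Both marks of Crb2 thus changed by 0.93 and 0.81 more than the median symbol. Crb1 had 1.14, 1.61 and 1.38 RPKM of H3K18La at 5 mM and 4.66, 4.16 and 3.96 RPKM at 25 mM (log2 change 1.35 ± 0.17 (SE), adjusted p = 0.00127). Its H3K27Ac values were 2.26 and 4.63 RPKM at 5 mM and 9.12 and 8.56 RPKM at 25 mM (log2 change 1.31 ± 0.41 (SE), adjusted p = 0.00628). Relative to the median symbol the changes of Crb1 came to 0.65 for H3K18La and 0.61 for H3K27Ac. The 3 H3K18La libraries of Crb1 at 25 mM lay close together, and its 2 H3K27Ac libraries at 5 mM differed from each other by more than those at 25 mM did.

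The scaffold genes Pard3, Patj and Mpp5 changed least. Pard3 had 1.62, 1.73 and 1.35 RPKM of H3K18La at 5 mM and 4.24, 4.43 and 4.66 RPKM at 25 mM (log2 change 1.26 ± 0.15 (SE), adjusted p = 0.00108), and its H3K27Ac was 1.79 and 2.39 RPKM at 5 mM and 4.64 and 4.06 RPKM at 25 mM (log2 change 0.91 ± 0.35 (SE), adjusted p = 0.0258). Patj had 1.07, 1.08 and 0.744 RPKM of H3K18La at 5 mM and 2.92, 2.6 and 2.59 RPKM at 25 mM (log2 change 1.14 ± 0.20 (SE), adjusted p = 0.00498), and its H3K27Ac was 2.03 and 2.46 RPKM at 5 mM and 4.5 and 4.14 RPKM at 25 mM (log2 change 0.82 ± 0.35 (SE), adjusted p = 0.0479). Mpp5 had 0.596, 0.97 and 0.925 RPKM of H3K18La at 5 mM and 1.6, 1.85 and 2.54 RPKM at 25 mM (log2 change 0.90 ± 0.25 (SE), adjusted p = 0.0322), and its H3K27Ac was 2.76 and 3.94 RPKM at 5 mM and 8.99 and 6.09 RPKM at 25 mM (log2 change 1.06 ± 0.40 (SE), adjusted p = 0.0227). Relative to the median symbol these changes came to 0.57, 0.44 and 0.21 for H3K18La and to 0.21, 0.12 and 0.36 for H3K27Ac, in the order Pard3, Patj, Mpp5. The H3K18La level of Mpp5 rested on few reads, 2, 8 and 2 at 5 mM and 5, 12 and 12 at 25 mM. Neither of its 2 peaks passed the test alone in H3K18La.

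**Figure D1:**
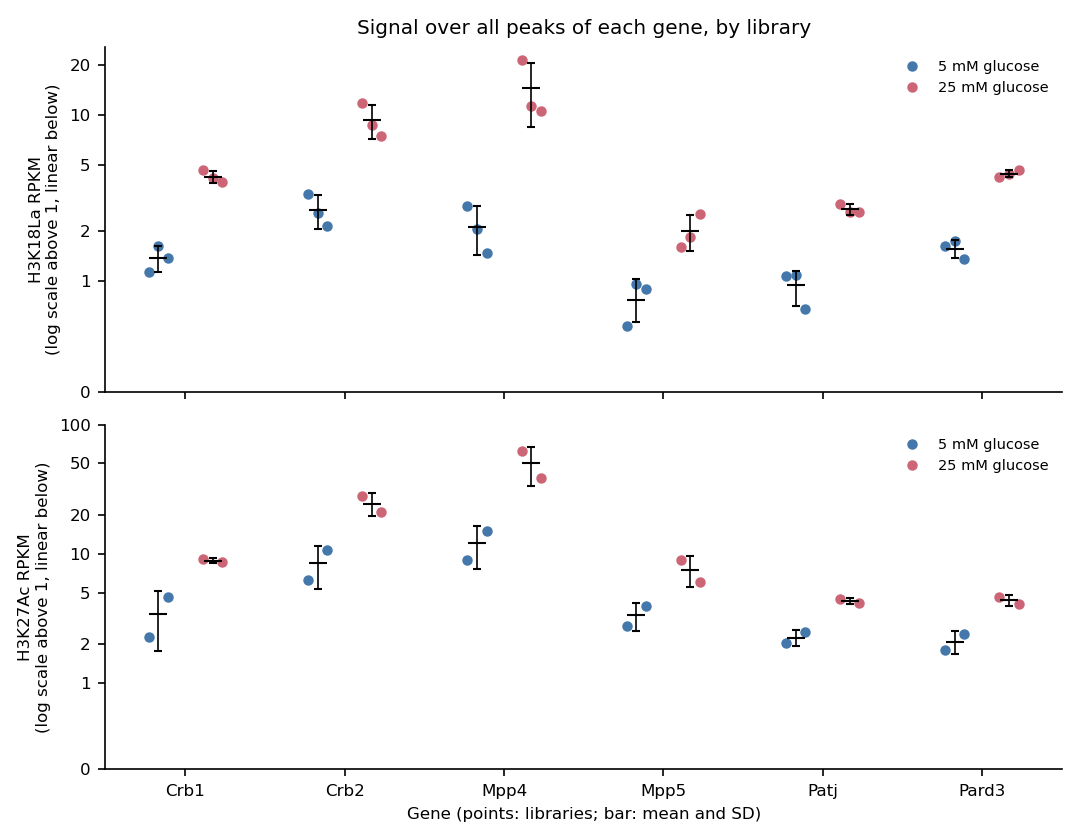
Width-weighted RPKM of each gene (y axis, log scale above 1 RPKM and linear below) by glucose level for H3K18La and H3K27Ac, with one point per library and bars for the mean and SD. All 25 mM points lie above the 5 mM points of the same gene and mark, and the widest gap is that of Mpp4, from 1.48 to 2.85 RPKM at 5 mM to 10.6 to 21.4 RPKM at 25 mM for H3K18La, but scaled to reads in peaks 1 gene in H3K18La and 3 in H3K27Ac had a change below 0.

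The order of levels depended on the mark and the glucose level. In H3K18La at 25 mM the order was Mpp4, Crb2, Pard3, Crb1, Patj and Mpp5, in which Mpp4 overlapped Crb2 and Pard3 overlapped Crb1. At 5 mM the H3K18La order was Crb2, Mpp4, Pard3, Crb1, Patj and Mpp5, and only Crb1 and Patj were neighbours whose libraries did not overlap. In H3K27Ac Mpp4 and Crb2 led at both levels, and they overlapped at 5 mM. Mpp5 stood last in H3K18La but came before Patj and Pard3 in H3K27Ac at both glucose levels, with no overlap between Mpp5 and the next gene.

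The exact two-sided permutation test of the glucose labels gave 0.1 for each gene in H3K18La and 0.333 in H3K27Ac, the smallest values that 3 against 3 and 2 against 2 libraries allow (0.2 and 0.333 after adjustment over the 12 tests). With ordinary moderation 0 of the 6 genes, and 0 of all symbols, passed in H3K27Ac, although all 6 had an unadjusted p under 0.05. Scaled to reads in peaks instead of all reads, 0 genes passed the limma test in either mark (1 in each at an unadjusted p under 0.05), and the H3K18La changes were 1.19 for Mpp4, 0.32 for Crb2, 0.16 for Crb1, 0.05 for Pard3, 0.04 for Patj and -0.13 for Mpp5, while those of H3K27Ac were 0.78, 0.28, 0.16, -0.19, -0.29 and -0.10. Leaving out a library left 5 or 6 of the 6 H3K18La calls, but for H3K27Ac it left 1 without 25 mM replicate 2 and 0 without any of the other 3.

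Among the 130 single peaks, 48 rose in H3K18La, against 20.6% of all 108253 peaks that rose. In H3K27Ac 26 rose, against 16.4% of all peaks, but 0 of the 130 and 0 of all peaks passed with ordinary in place of robust moderation (39 of the 130 at an unadjusted p under 0.05) or with a pseudocount of 0.1 (48 at an unadjusted p under 0.05). By limma 0 of the 130 fell in either mark, also at an unadjusted p under 0.05, and with voom weights on the recovered reads 0 fell as well, but only 0.117% of all peaks fell in H3K18La and 0.179% in H3K27Ac. The median change of the 130 peaks was 1.13 for H3K18La and 0.72 for H3K27Ac on the log2 scale, and that of all peaks was 0.76 and 0.58. The groups did not overlap, with 25 mM higher, at 73 of the 130 peaks in H3K18La (36.6% of all peaks) and at 86 in H3K27Ac (53.0% of all peaks), and in H3K27Ac 3 of the 130 were lower without overlap, against 6.37% of all peaks. Without Pard3, which holds most of the peaks, 21 of 50 peaks rose in H3K18La and 15 of 50 in H3K27Ac. The H3K18La count was 28, 24 and 28 without 25 mM replicates 1, 2 and 3 and 35 to 44 without a 5 mM library, and the H3K27Ac count was 0 without any 1 of the 4 libraries. Scaled to reads in peaks, 0 of the 130 peaks passed in either mark (15 and 23 at an unadjusted p under 0.05), and 70 and 41 had positive changes, against 117 and 118 on the scale of all reads. Their median change was then 0.13 for H3K18La and -0.26 for H3K27Ac. In 29 of the 130 peaks each 5 mM H3K18La library held at most 3 reads (8 peaks for H3K27Ac), so that these changes rest on few reads.

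Crb1 (ENSMUSG00000063681, chromosome 1) was marked more strongly at an internal promoter than at its upstream start at 25 mM glucose. The internal promoter peak (chr1:139255534-139256311) covers the start of a retained-intron transcript 121 kb from the upstream start, and the sequence of the internal start printed above lies within it. It had 4.27, 3.22 and 1.89 RPKM of H3K18La at 5 mM and 17, 12.3 and 16.9 RPKM at 25 mM (log2 change 2.17 ± 0.31 (SE), adjusted p = 0.000409). Its H3K27Ac rose as well, from 8.92 and 17.2 RPKM at 5 mM to 53.6 and 42.6 RPKM at 25 mM (log2 change 1.90 ± 0.49 (SE), adjusted p = 0.0191). The upstream promoter peak (chr1:139376773-139377154), where 3 protein-coding transcripts start, did not pass the test in either mark. There H3K18La was 4.96, 2.53 and 1.93 RPKM at 5 mM and 2.66, 6.44 and 5.3 RPKM at 25 mM (log2 change 0.55 ± 0.41 (SE), adjusted p = 0.383), and the groups overlapped. H3K27Ac there was 3.63 and 8.85 RPKM at 5 mM and 12 and 14.5 RPKM at 25 mM (log2 change 1.14 ± 0.46 (SE), adjusted p = 0.0899), without overlap. The difference in change between these 2 promoter peaks was not tested.

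The largest H3K18La change of Crb1 lay in intron 5 beside the internal start, at chr1:139254771-139255109, with 1.4, 2.28 and 0 RPKM at 5 mM and 24, 13.8 and 7.96 RPKM at 25 mM (log2 change 3.38 ± 0.56 (SE), adjusted p = 0.00101). H3K27Ac at this peak went from 4.78 and 10.9 RPKM at 5 mM to 30.8 and 25 RPKM at 25 mM (log2 change 1.86 ± 0.48 (SE), adjusted p = 0.0188). The peak is narrow, and its 5 mM libraries held few H3K18La reads. The most negative value was that of another intron 5 peak (chr1:139309788-139310814), which passed the test in neither mark (log2 change -0.77, adjusted p = 0.331 for H3K18La and -0.21, adjusted p = 0.783 for H3K27Ac by limma). In all, 6 of 15 Crb1 peaks rose in H3K18La and 5 in H3K27Ac, against 20.6% and 16.4% of all peaks.

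Crb2 (ENSMUSG00000035403, chromosome 2) rose at its upstream promoter and in its first intron in both marks. The promoter peak (chr2:37775813-37776693) had 8.61, 4.82 and 5.02 RPKM of H3K18La at 5 mM and 31.8, 20.4 and 14.2 RPKM at 25 mM (log2 change 1.74 ± 0.31 (SE), adjusted p = 0.00146). H3K27Ac there was 13.4 and 23.6 RPKM at 5 mM and 86 and 56.1 RPKM at 25 mM (log2 change 1.94 ± 0.51 (SE), adjusted p = 0.02). The peak in intron 1 (chr2:37779614-37781452) was the strongest non-promoter peak of the gene in both marks and stood close to the promoter in level. Its H3K18La was 7.22, 4.72 and 3.2 RPKM at 5 mM and 28.2, 19.5 and 18 RPKM at 25 mM (log2 change 2.05 ± 0.29 (SE), adjusted p = 0.00043), and its H3K27Ac was 15.7 and 25.6 RPKM at 5 mM and 86.3 and 58.1 RPKM at 25 mM (log2 change 1.79 ± 0.51 (SE), adjusted p = 0.0247). Replicate 1 was the highest 25 mM library at both peaks in both marks. Of all 14 Crb2 peaks, 8 rose in H3K18La and 5 in H3K27Ac, against 20.6% and 16.4% of all peaks, and 7 of the 14 lay upstream in intergenic sequence.

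A second Crb2 promoter peak (chr2:37790908-37791775), 15.1 kb into the gene at the start of a nonsense-mediated-decay transcript, did not pass the test. Its H3K18La was 2.18, 1.56 and 2.55 RPKM at 5 mM and 4.1, 3.12 and 1.94 RPKM at 25 mM (log2 change 0.42 ± 0.41 (SE), adjusted p = 0.506), with overlapping groups. Its H3K27Ac was 4.26 and 5.38 RPKM at 5 mM and 10.6 and 10.1 RPKM at 25 mM (log2 change 1.03 ± 0.42 (SE), adjusted p = 0.0907). The upstream intergenic peak with the most negative H3K27Ac value of the gene (chr2:37756330-37757610) rose in H3K18La, from 0.37, 1.05 and 1.15 RPKM at 5 mM to 4.37, 3.07 and 2.63 RPKM at 25 mM (log2 change 1.54 ± 0.46 (SE), adjusted p = 0.0304). H3K27Ac at that peak was 2.35 and 1.63 RPKM at 5 mM and 1.74 and 2 RPKM at 25 mM (log2 change -0.06 ± 0.42 (SE), adjusted p = 0.95).

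Mpp4 (ENSMUSG00000079550, chromosome 1) had 3 peaks, and its pair of promoter peaks rose in both marks. The peak at the second start (chr1:59161334-59162110), centred 1.67 kb downstream of the first start and holding the CRX-type site shown above, had 2.44, 1.74 and 0.948 RPKM of H3K18La at 5 mM and 24.9, 15.2 and 12.6 RPKM at 25 mM (log2 change 3.03 ± 0.35 (SE), adjusted p = 0.000189). H3K27Ac there was 14 and 21.8 RPKM at 5 mM and 92.9 and 56.9 RPKM at 25 mM (log2 change 2.03 ± 0.51 (SE), adjusted p = 0.0178). The ratio of mean H3K18La RPKM at this peak, 25 mM over 5 mM, was 10.3, and the log2 scale with its added 0.5 gives a smaller change. The peak at the upstream start (chr1:59162806-59164770) went from 3.38, 2.95 and 1.87 RPKM at 5 mM to 26.7, 13.1 and 12.9 RPKM at 25 mM of H3K18La (log2 change 2.43 ± 0.33 (SE), adjusted p = 0.000346). Its H3K27Ac went from 8.94 and 16.1 RPKM at 5 mM to 69.1 and 40.0 RPKM at 25 mM (log2 change 2.08 ± 0.50 (SE), adjusted p = 0.0161). The peak over exon 10 of 22 (chr1:59144359-59145109) was weaker, with 1.89, 0 and 0.981 RPKM of H3K18La at 5 mM and 4.06, 2.95 and 2.69 RPKM at 25 mM (log2 change 1.61 ± 0.57 (SE), adjusted p = 0.0611), whereas its H3K27Ac rose from 3.7 and 5.36 RPKM at 5 mM to 11.5 and 14.7 RPKM at 25 mM (log2 change 1.44 ± 0.43 (SE), adjusted p = 0.0292).

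Mpp5 (ENSMUSG00000021112, chromosome 12) had 2 peaks and rose at its promoter in H3K27Ac. At the promoter peak (chr12:78748297-78749285) H3K27Ac was 3.98 and 4.4 RPKM at 5 mM and 13.5 and 8.31 RPKM at 25 mM (log2 change 1.25 ± 0.43 (SE), adjusted p = 0.0492). H3K18La there was 0.959, 1.37 and 1.49 RPKM at 5 mM and 2.57, 2.49 and 3.41 RPKM at 25 mM (log2 change 0.91 ± 0.42 (SE), adjusted p = 0.149), without overlap but short of the threshold. The peak in intron 1 (chr12:78788364-78788966) was listed at 0 in 3 of the 6 H3K18La libraries, and its log2 change was 0.79 (adjusted p = 0.399) for H3K18La and 0.21 (adjusted p = 0.813) for H3K27Ac by limma.

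Patj (ENSMUSG00000061859, chromosome 4) rose at intronic peaks. Its single promoter peak did not pass in the fit over all peaks, but the same H3K27Ac values passed in the fit of promoter peaks averaged by gene (log2 change 1.25, adjusted p = 0.0231 by limma). The promoter peak (chr4:98395475-98396493), which covers the window with the GC boxes, had 1.4, 0.757 and 0.723 RPKM of H3K18La at 5 mM and 3.49, 1.21 and 2.32 RPKM at 25 mM (log2 change 0.91 ± 0.50 (SE), adjusted p = 0.227). Its H3K27Ac was 5.67 and 5.37 RPKM at 5 mM and 17.6 and 10.8 RPKM at 25 mM (log2 change 1.25 ± 0.44 (SE), adjusted p = 0.053). The H3K18La groups overlapped at the promoter and the H3K27Ac groups did not. The strongest non-promoter peak (chr4:98605777-98606836) lies in intron 3 of a shorter transcript, and there H3K18La rose from 4.92, 3.28 and 3.47 RPKM at 5 mM to 10.1, 13.5 and 12.7 RPKM at 25 mM (log2 change 1.53 ± 0.28 (SE), adjusted p = 0.00165). H3K27Ac at that peak was 6.11 and 8.35 RPKM at 5 mM and 13.6 and 18.8 RPKM at 25 mM (log2 change 1.11 ± 0.45 (SE), adjusted p = 0.0852). The largest change of the gene, at chr4:98560378-98560970 in intron 1 of the same transcript, was from 0, 0.325 and 0 RPKM at 5 mM to 3.43, 5.39 and 1.71 RPKM at 25 mM in H3K18La (log2 change 2.65 ± 0.57 (SE), adjusted p = 0.00469), and this was also the only Patj peak called in H3K27Ac (log2 change 1.35 ± 0.44 (SE), adjusted p = 0.0411). The peak is narrow, and its H3K18La libraries at 5 mM held few reads. The most negative values were -0.46 in H3K18La at chr4:98509656-98510183 (adjusted p = 0.687) and -0.18 in H3K27Ac at chr4:98707081-98707706 (adjusted p = 0.861), neither past the threshold by limma. Of the 16 Patj peaks, 5 rose in H3K18La and 1 in H3K27Ac, against 20.6% and 16.4% of all peaks, so that the share was below that of all peaks in H3K27Ac.

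Pard3 (ENSMUSG00000025812, chromosome 8) held 80 peaks, and the peaks that rose all lay outside its 3 promoter peaks. At the upstream promoter (chr8:127063395-127065277) H3K18La was 0.755, 1.43 and 1.17 RPKM at 5 mM and 2.97, 1.57 and 0.895 RPKM at 25 mM (log2 change 0.43 ± 0.51 (SE), adjusted p = 0.596). H3K27Ac there was 1.96 and 2.91 RPKM at 5 mM and 6.64 and 4.94 RPKM at 25 mM (log2 change 1.10 ± 0.41 (SE), adjusted p = 0.0655). The H3K18La groups overlapped at this promoter, and the H3K27Ac groups did not. The internal promoter peaks, 9.06 kb and 326 kb into the gene, were weaker still, at no more than 2.16 RPKM of H3K18La and 1.91 RPKM of H3K27Ac in any library. Their log2 changes were 0.54 and 0.22 for H3K18La and 0.83 and 0.58 for H3K27Ac, none past the threshold.

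The strongest Pard3 peak in H3K18La lay in intron 5, 267 kb from the upstream start (chr8:127330190-127331129), and the 250 bases at its centre are those printed above. It had 4.54, 4.93 and 6.27 RPKM of H3K18La at 5 mM and 20.6, 25.9 and 24.4 RPKM at 25 mM (log2 change 2.08 ± 0.23 (SE), adjusted p = 0.000182). Its H3K27Ac was 6.64 and 9.42 RPKM at 5 mM and 21.3 and 19.6 RPKM at 25 mM (log2 change 1.32 ± 0.45 (SE), adjusted p = 0.0477). Libraries of 1 glucose level lay close together in H3K18La, and the levels did not overlap in either mark. The strongest non-promoter peak in H3K27Ac lay in intron 19 (chr8:127437528-127440684), with 7.84 and 10.4 RPKM at 5 mM and 34.4 and 23.9 RPKM at 25 mM (log2 change 1.62 ± 0.46 (SE), adjusted p = 0.0255). H3K18La at that peak was 3.75, 3.73 and 2.8 RPKM at 5 mM and 16.6, 14.3 and 14.2 RPKM at 25 mM (log2 change 1.99 ± 0.26 (SE), adjusted p = 0.000272). The glucose levels did not overlap there either, and replicate 1 was the highest 25 mM library in both marks.

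The peaks with the largest changes of Pard3 were weak at 5 mM. In H3K18La it was a peak of intron 21 (chr8:127550842-127551254), with 0, 0.934 and 1.78 RPKM at 5 mM and 3.7, 11.3 and 13.1 RPKM at 25 mM (log2 change 2.89 ± 0.58 (SE), adjusted p = 0.00306). In H3K27Ac it was a peak of intron 2 (chr8:127254471-127254794), with 0 and 0.497 RPKM at 5 mM and 1.29 and 4.99 RPKM at 25 mM (log2 change 2.15 ± 0.54 (SE), adjusted p = 0.0185), where H3K18La also rose (log2 change 2.56 ± 0.57 (SE), adjusted p = 0.00597). The most negative values were -0.69 for H3K18La in intron 1 (chr8:127069897-127070391, adjusted p = 0.577) and -0.48 for H3K27Ac in intron 5 (chr8:127344304-127344912, adjusted p = 0.576), neither past the threshold by limma.

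By intron, the largest group was intron 21 of 23, with 28 peaks between 412 kb and 526 kb from the upstream start. Of these, 16 rose in H3K18La and 4 in H3K27Ac, with median log2 changes of 1.36 and 0.57. In intron 1, next to the upstream promoter, 0 of 8 peaks rose in either mark by limma (1 and 0 at an unadjusted p under 0.05), and the median changes were 0.43 and 0.40. In intron 2, 3 of 12 peaks rose in H3K18La and 2 in H3K27Ac, in intron 5 3 of 9 and 2 of 9, and in intron 19 3 of 6 in each mark. Over all 45481 intron peaks of the file 23.5% rose in H3K18La and 13.4% in H3K27Ac. Of the 80 Pard3 peaks of every kind, 27 (33.75%) and 11 (13.75%) rose, against 20.6% and 16.4% of all peaks. The Pard3 share was thus below that of all peaks in H3K27Ac. The difference between introns was not tested.

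**Figure D2:**
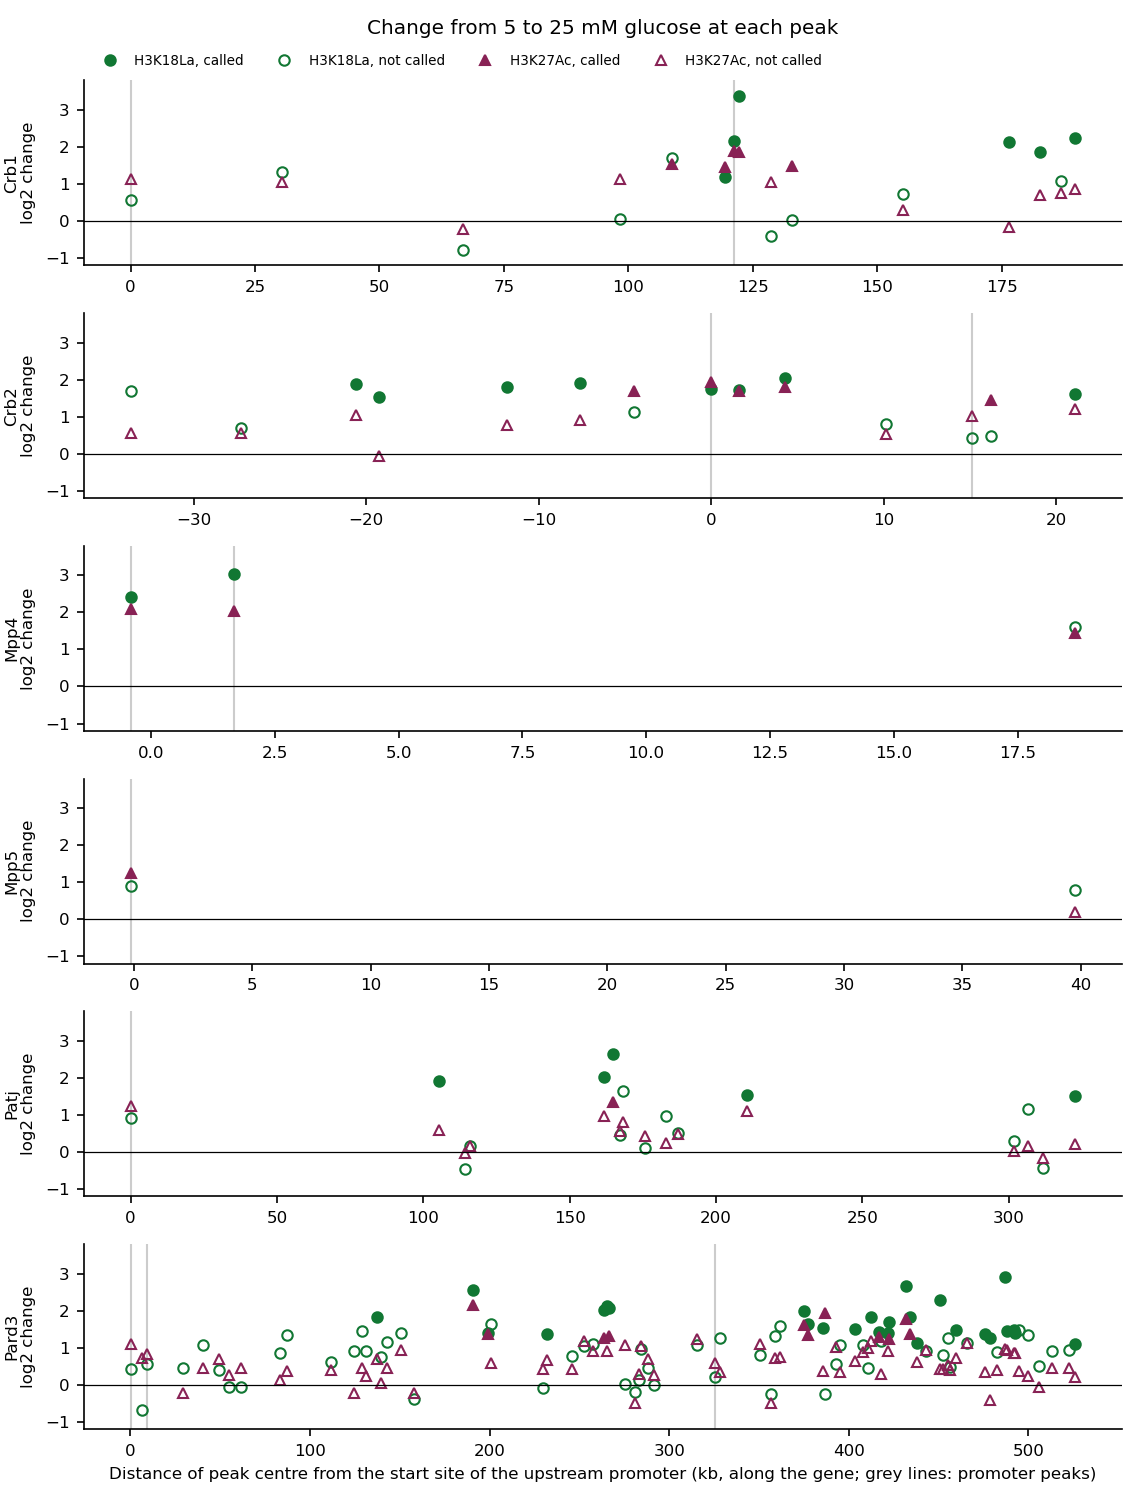
Log2 change of each peak, 25 mM over 5 mM glucose, against its distance in kb from the gene's upstream start, by gene and mark, with filled symbols for called peaks and grey lines at promoter peaks. In Pard3 16 of the 27 called H3K18La peaks lie in intron 21, between 412 kb and 526 kb, and in Crb1 the called peaks lie away from the upstream start, where the peak at 0 kb had a change of 0.55, on the scale of all reads. Scaled to reads in peaks, 70 of the 130 changes in H3K18La and 41 in H3K27Ac were above 0.

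Of the 11 promoter peaks of the 6 genes, 4 rose in H3K18La and 5 in H3K27Ac, against 20.4% and 40.6% of all 17144 promoter peaks. The 4 were both Mpp4 peaks, the internal Crb1 peak and the upstream Crb2 peak, and these 4 together with the Mpp5 promoter were the 5 in H3K27Ac. The groups did not overlap at 5 of the 11 in H3K18La, against 45.0% of all promoter peaks, and at 10 in H3K27Ac, against 78.5%. With the promoter peaks of a gene averaged, Crb1, Crb2 and Mpp4 rose in H3K18La (log2 changes 1.83, 1.46 and 2.58) and all 6 genes rose in H3K27Ac, against 26.2% and 57.7% of the 14562 symbols with a promoter peak. Patj and Pard3 passed in H3K27Ac in this fit (adjusted p = 0.0231 and 0.0301 by limma) and at no promoter peak in the fit over all peaks. With the other peaks averaged instead, Crb1, Crb2, Pard3 and Patj rose in H3K18La (1.23, 1.66, 1.28 and 1.15), against 30.0% of the 19849 symbols with such a peak. In H3K27Ac 0 of the 6 genes passed the adjusted limma test, but only 1 of the 19849 symbols (0.00504%) did. At an unadjusted p under 0.05 there were 5 of the 6, against 35.5% of symbols.

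**Figure D3:**
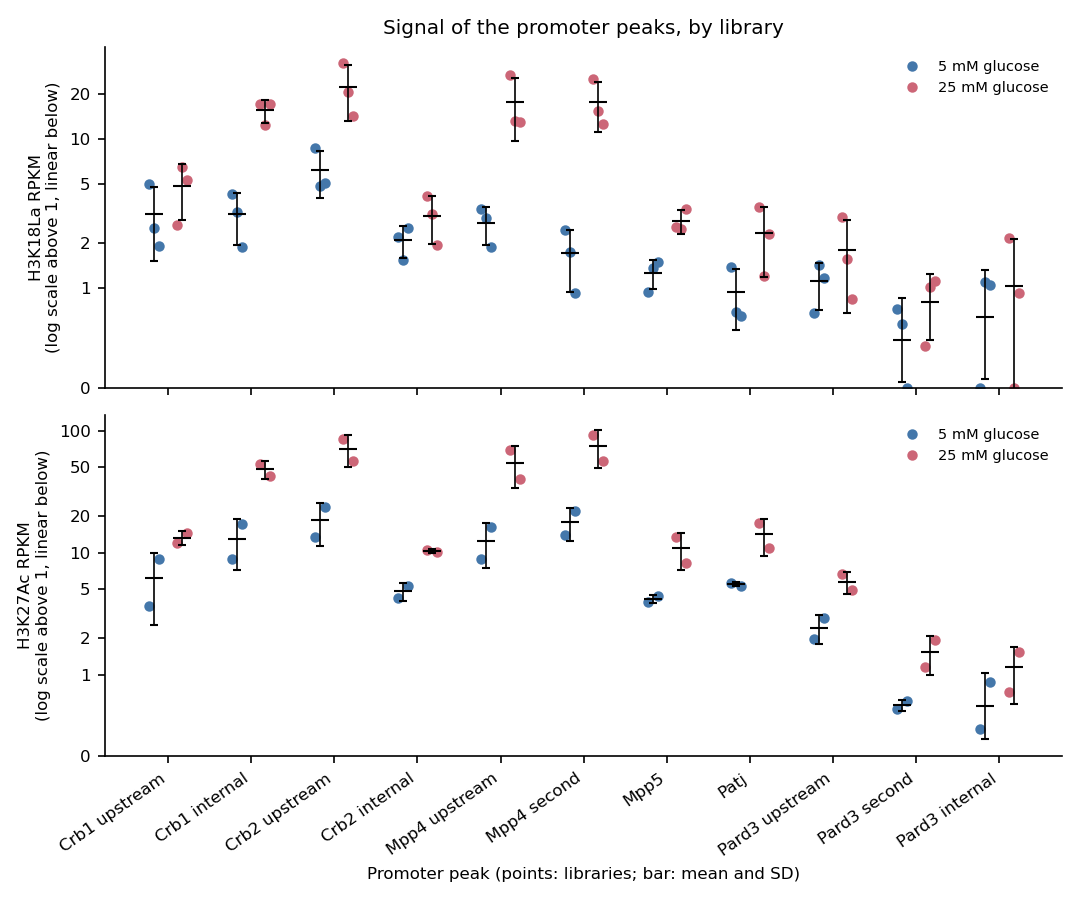
RPKM of the 11 promoter peaks in each library by glucose level, with one point per library and bars for the mean and SD (cut at 0), for H3K18La and H3K27Ac (y axis, log scale above 1 RPKM and linear below). In H3K18La the glucose levels do not overlap at both Mpp4 peaks, the internal Crb1 peak, the upstream Crb2 peak and the Mpp5 peak. These are 5 of the 11, against 45.0% of all promoter peaks. The upstream Crb1 peak overlaps in H3K18La, at 1.93 to 4.96 RPKM and 2.66 to 6.44 RPKM. In H3K27Ac 10 of the 11 do not overlap, against 78.5% of all promoter peaks.

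The promoter sequences differed in base composition. The ratio of observed to expected CpG was 0.22 and 0.25 at the Mpp4 peaks, 0.23 at the internal Crb1 peak and 0.37 and 0.26 at the Crb2 peaks, but 0.90 at Mpp5, 0.90 at the upstream Pard3 peak and 0.76 at Patj. The upstream Crb1 peak had a ratio of 0.041, and the median of all promoter peaks was 0.597. The 4 promoter peaks that rose in H3K18La had ratios under that median, and so did 4 of the 7 that did not pass. Over all promoter peaks, the 8495 with a ratio over 0.6 had a median H3K18La change of 0.88 and the 8649 others 0.89, and the H3K27Ac medians were 1.33 and 0.84, a description without a test.

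Both marks rose at part of the peaks. Of the 130, 19 rose in both, against 8.16% of all 108253 peaks, and these 19 were 39.6% of the 48 in H3K18La and 73.1% of the 26 in H3K27Ac. Positive values in both marks were found at 111 of the 130 and at 67.4% of all peaks. Across the 130 peaks, which share libraries, Pearson's r of the 2 changes was 0.48, given as a description. The glucose change differed between the marks at 0 peaks by the adjusted interaction test in limma (lowest adjusted p = 0.971, and 0 also with voom weights) and at 5 peaks at an unadjusted p under 0.05, against 4.61% of all peaks. At 4 of the 5 the H3K18La change was the larger and at 1 the H3K27Ac change. That 1 peak, singled out after its values were seen, lies in intron 19 of Pard3 (chr8:127450634-127451142), where H3K18La was 2.79, 2.65 and 2.89 RPKM at 5 mM and 3, 1.93 and 1.99 RPKM at 25 mM. H3K27Ac there was 0 and 0.316 RPKM at 5 mM and 2.73 and 1.32 RPKM at 25 mM (log2 change 1.93 ± 0.52 (SE), adjusted p = 0.0213).

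**Figure D4:**
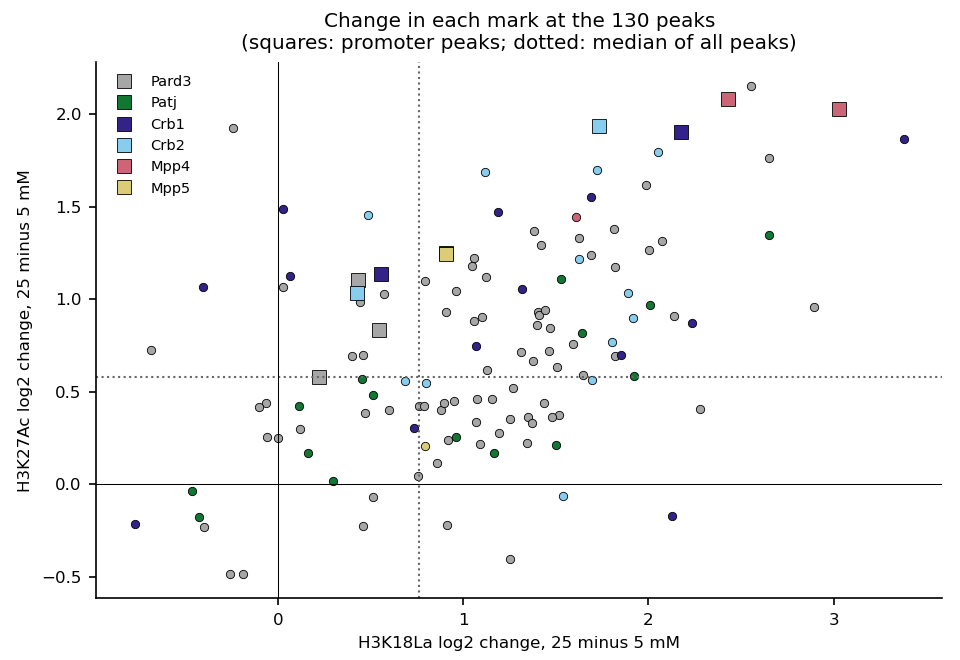
Log2 change in H3K27Ac against log2 change in H3K18La for the 130 peaks, coloured by gene, with promoter peaks as squares (those of Mpp5 and Patj coincide) and dotted lines at the medians of all peaks. Both Mpp4 promoter peaks and the internal Crb1 peak lie far along both axes, and the intron 19 peak of Pard3 lies near 0 for H3K18La (-0.25) and at 1.93 for H3K27Ac on the scale of all reads.

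Other polarity genes were compared at the level of the gene. Of 18, among them the Lin7 genes that bind the PALS1 scaffold, Par6 and atypical protein kinase C genes, and the Scribble group, 9 rose in H3K18La and 16 in H3K27Ac, against 30.9% and 43.3% of all symbols, and by limma 0 fell in either mark, also at an unadjusted p under 0.05. Their median changes were 1.02 and 1.38 against 0.69 and 0.70 for all symbols, but -0.05 and 0.18 when scaled to reads in peaks, where all symbols had -0.21 and -0.24. The highest were Llgl2 in H3K18La (1.93 ± 0.16 (SE)) and Llgl1 in H3K27Ac (2.17 ± 0.35 (SE)), both Lethal giant larvae genes of the basolateral side. The lowest were Cdc42, a small GTPase that binds PAR6, at -0.24 ± 0.33 in H3K18La, and Pard3b, a paralogue of Pard3, at 0.13 ± 0.35 in H3K27Ac. Of the aPKC genes, Prkci changed by 1.87 ± 0.46 and 1.57 ± 0.44 and Prkcz by 1.43 ± 0.15 and 1.37 ± 0.45, and both rose in both marks. Mpdz, a close relative of Patj, rose by 1.36 ± 0.14 and 1.04 ± 0.39. Of 7 genes of the adherens junction and its partners, 5 rose in H3K18La and 4 in H3K27Ac, the latter near the 43.3% of all symbols, with medians of 0.89 and 0.92 (-0.14 and -0.10 when scaled to reads in peaks). Nectin1, an adhesion receptor, was the highest of them at 1.51 and 1.26, and Ctnnb1, which encodes beta-catenin, the lowest at 0.38 and 0.74 and not past the threshold in either mark. With 1 library left out, 8 or 9 polarity genes rose in H3K18La, and junction genes came to 3 without 5 mM replicate 2 or 3 or 25 mM replicate 1. In H3K27Ac 6 polarity and 2 junction genes rose without 25 mM replicate 2, and 0 of either without any of the other 3 libraries.

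The promoters whose pattern over the 10 libraries was most like that of each gene were found by Pearson's r of log2(RPKM + 0.5), among 12657 strongest promoter peaks. They were Stx4a and Gramd2 for Mpp4, 5830408C22Rik and Tmem35a for Crb1, Slc6a6 and Plch2 for Crb2, Slc25a4 and Slc25a3 for Mpp5, Ttc17 and Cenpb for Patj, and Ranbp3 and Rad51ap1 for Pard3. The values of r ran from 0.987 to 0.998, but 406 to 1822 promoters exceeded 0.95 for each gene, so that many promoters shared these patterns over libraries of the same 4 groups.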

How the data were processed

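CUT&Tag libraries of H3K18La and H3K27Ac were analysed from the values the authors deposited. The authors aligned reads to GRCm38 with nf-core/cutandrun, called peaks with MACS, merged consensus peaks of developing retina, counted reads in them with csaw, annotated them with ChIPseeker 1.34.1 and deposited RPKM values for each library. Their table of H3K18La fold changes and p-values, for which their methods name edgeR 3.40.2, was not used. All RPKM values (100%) were whole multiples of 1 read (tolerance 0.01), which gave the reads and the denominators quoted. Whether the authors' normalization factors enter those denominators is not given in the sources used here. Fragments carry no molecular identifiers, so read numbers show counting error only.

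limma 3.58.1 in R 4.3.3 was fitted to log2(RPKM + 0.5) over all features of a mark (eBayes with trend and robust moderation), with Benjamini-Hochberg adjustment and a threshold of 0.05. "Rose" and "fell" denote features past it. The linear model replaced the study's count model because the deposited unit was RPKM, although whole reads could be recovered. Fold changes on this scale understate those of weak peaks. An interaction of glucose and mark was fitted over all 10 libraries. Scripts were tested on simulated data. Alternatives were other pseudocounts, a filter on low values, ordinary moderation, other centrings and scalings, a stricter threshold, a replicate block, each library left out, and voom on recovered reads, which was chosen after seeing the data. Named peaks were, per gene, all promoter peaks, the strongest other peak of each mark and the largest rise and fall of each mark. The genes, peaks, lists and the robust moderation of the main fit were chosen with earlier results of these data known. In H3K27Ac 17988 peaks and 11284 symbols passed in either direction with robust moderation, and 0 of either with ordinary moderation. In H3K18La 22474 peaks passed with robust and 18390 with ordinary moderation. The junction gene Afdn had no peak under its symbol, and some items are not reported here. Peaks were assigned to genes by the authors' annotation, and a peak can overlap more than the gene it is assigned to. Sequences came from RefSeq (GRCm38.p6) and the GRCm38 genome.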

Additional observations from a re-analysis of the deposited data

Results flagged for a closer look

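One peak in intron 2 of Pard3 (chr8:127187913-127189134) stood out because every 25 mM library lay above every 5 mM library in H3K18La and below every 5 mM library in H3K27Ac. H3K18La was 0.776, 0.947 and 0.603 RPKM at 5 mM and 1.67, 1.61 and 2.48 RPKM at 25 mM. H3K27Ac was 1.70 and 1.58 RPKM at 5 mM and 1.25 and 1.43 RPKM at 25 mM. The H3K27Ac change was lower than the H3K18La change by 1.13 on the log2 scale (-1.13), and the interaction test did not separate them (unadjusted p = 0.108, adjusted p = 0.971, limma). Neither mark passed the test alone (adjusted p = 0.209 and 0.772). The peak was singled out after its values were seen.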

How the results depend on the processing

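The cause of each change below was not tested. Of the 130 peaks, the 48 that rose in H3K18La became 11 with libraries centred on their median, 0 when scaled to reads in peaks, 24 at a threshold of 0.01 and 24 to 44 with 1 library left out. The 26 in H3K27Ac became 0 at a pseudocount of 0.1, 0 with ordinary moderation, 8 when centred on the median, 0 when scaled to reads in peaks, 0 at a threshold of 0.01 and 0 in each of the 4 fits without 1 library. The 6 genes in H3K18La became 0 when scaled to reads in peaks and 5 or 6 with 1 library left out. The 6 in H3K27Ac became 0 with ordinary moderation, 1 when centred on the median, 0 when scaled to reads in peaks, 3 at a threshold of 0.01 and 0 or 1 with 1 library left out. The 0 peaks of the interaction stayed at 0 in every fit run. Apart from the replicate block, given below, the other planned fits that were run and voom on the recovered reads, an alternative chosen after seeing the data, left these counts within 1.5 times. The planned edgeR quasi-likelihood fit was not run.

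Same-numbered libraries did not deviate together within a mark (r from -0.004 to 0.024). With a median of 1 to 11 reads per peak, such values cannot tell whether the numbers pair libraries. Across the marks at 25 mM, same-numbered libraries had r = 0.134 (replicate 1) and 0.050 (replicate 2), and every other same-numbered pair across marks lay between -0.027 and 0.023. The 2 H3K27Ac libraries of a group deviate as mirror images. H3K18La replicate 3 at 25 mM, without a same-numbered partner, had r = -0.105 and 0.105 with H3K27Ac replicates 1 and 2 at 25 mM. With the replicate block, 36 peaks and 6 genes rose in H3K18La and 9 peaks and 0 genes in H3K27Ac, and 0 peaks of the interaction.

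Scaled to reads in peaks, 70 of the 130 peaks in H3K18La and 41 in H3K27Ac had a positive change, against 117 and 118, and the medians of the 130 peaks in H3K27Ac (0.72 to -0.26), of the polarity genes in H3K18La (1.02 to -0.05) and of the junction genes in both marks (0.89 to -0.14 and 0.92 to -0.10) turned. Among the named peaks and the 6 genes, these directions turned. Scaled to reads in peaks, Mpp5 changed by -0.13 in H3K18La, and Mpp5 by -0.10, Patj by -0.29 and Pard3 by -0.19 in H3K27Ac. Under that scaling the H3K18La changes of promoter peaks were -0.72 (Crb1 upstream), -0.79 (Crb2 internal), -0.23 (Mpp5), -0.16 (Patj) and -0.64, -0.15 and -0.50 (Pard3, in order along the gene), and those of H3K27Ac were -0.060 (Crb1 upstream), -0.16 (Crb2 internal) and -0.016 and -0.16 (the first and the last of Pard3). In H3K27Ac the Mpp5 intron peak had -0.75, the Pard3 peaks of introns 1 and 21 had -0.41 and -0.18 and the Patj intron 3 peak -0.11. Centred on the median, H3K18La had -0.076 (Crb1 upstream), -0.21 (Crb2 internal) and -0.20, -0.086 and -0.41 (Pard3), and the Mpp5 intron peak had -0.23 in H3K27Ac. Centred on the weakest decile, the Pard3 intron 5 peak with the most negative H3K27Ac value had 0.013 in H3K18La, and with voom the last Pard3 promoter peak had -0.33. With 1 library left out, these 2 Pard3 peaks ranged from -0.87 to 0.40 and from -0.33 to 0.88 in H3K18La. In H3K27Ac the ranges were -0.45 to 0.025 for the Crb1 intron 5 peak of most negative value, -0.27 to 0.15 for the Crb2 intergenic peak, -0.57 to 0.98 for the Mpp5 intron peak, -1.25 to 0.29 for the Pard3 intron 5 peak and -0.38 to 0.31 for the Patj intron 21 peak. Of all these, only the gene values of Mpp5, Patj and Pard3 had passed the test. Fits without 1 H3K27Ac library leave 1 library at a glucose level, which is taken to vary like the others.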
